A study of Mus musculus with 4 samples.

Results

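Sphk2, the gene for sphingosine kinase 2, and 9 genes that lie directly around it on chromosome 7 were followed in myeloid-derived suppressor cells of wild-type and Sphk2 knockout mice. The 9 neighbours are Dbp, Rpl18, Fut2, Fut1, Car11, Ntn5, Mamstr, Rasip1 and Izumo1. They were picked by their position, with the difference between the genotypes already known for Sphk2 and Fut2, so the values of these 10 genes in that comparison are given as a description. All 10 were found among the 55416 gene IDs of the count table. All mice had been injected with EL4, a mouse T cell lymphoma line, and 14 days later the cells were flow-sorted from their ascites. One group was wild type (WT, 2 libraries) and the other was knocked out for Sphk2 (KO, 2 libraries). The knockout is named only as such in the labels. The sources used here do not give the strain, age or sex of the mice, the deleted part of Sphk2 or whether each library came from its own mouse, so a p-value here covers no more than the spread among these 4 libraries, which may be technical.

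Poly(A) RNA was sequenced from 250 ng of total RNA per library. The libraries held 14087613 to 24685576 counts, and the 10 most abundant genes took 8.79% to 10.6% of them. Levels are given as counts-per-million (CPM) on library sizes scaled by the TMM method of edgeR. A log2 fold change is KO minus WT from the edgeR fit across 16566 genes. Its standard error (SE), derived from the test statistic, had a median of 0.28 over all of them. The median log2 fold change over all tested genes was -0.00075, and it was -0.17 when library size alone set the scale.

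Sphingosine kinases phosphorylate sphingosine to sphingosine 1-phosphate, a lipid that acts on cell surface receptors and, when made by the nuclear enzyme sphingosine kinase 2, on histone deacetylases. The genes beside Sphk2 serve unrelated functions. Dbp is a PAR bZIP transcription factor and an output gene of the circadian clock, and Rpl18 is a protein of the large ribosomal subunit. Fut1, Fut2 and their neighbour Sec1 form a family of alpha-1,2-fucosyltransferases, which build the H antigen on cell surface glycans and mucins. Genes that lie close to a targeted gene stay linked to it when mice are crossed, and genes on opposite strands can share transcribed bases, which is why this small region was examined gene by gene.

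A pair of sequence features bears on how the counts of these genes can be read. The first is the likeness of the fucosyltransferase genes. Over the aligned coding bases Fut2 and Sec1 were 84.4% identical, Fut2 and Fut1 68.7%, and Sec1 and Fut1 67.6%. Fut2 and Sec1 share an identical run of 180 coding bases, shown because a read from it cannot be assigned to either gene. It spans coding bases 372 to 551 of Fut2 and 444 to 623 of Sec1. The longest run that Fut2 shares with Fut1 is 24 bases, at coding bases 591 to 614 of Fut2, and Sec1 shares the same run with Fut1. All letters of both runs are identical between the genes named.
Fut2 and Sec1: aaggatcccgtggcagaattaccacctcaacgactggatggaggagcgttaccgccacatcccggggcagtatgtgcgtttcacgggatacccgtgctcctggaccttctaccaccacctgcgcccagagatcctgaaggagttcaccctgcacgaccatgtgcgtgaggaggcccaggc
Fut2, Sec1 and Fut1: tacctttgtgggtgtccatgtgcg

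Of the 75-base sequences in the longest annotated transcript of each gene, 3.78% of Fut2 occurred in Sec1 on the same strand and 0 of Fut1 in any other gene. The share was 13.6% in Rpl18, which has 4 such copies, among them the pseudogene Rpl18-ps2. Izumo1 shared 22.5% with Rasip1, and Rasip1 16.2% with Izumo1, because their exons overlap on the same strand.

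The second feature is the overlap of Sphk2 with a gene at either end. Of the 4159 exonic bases of Sphk2, 539 (12.96%) are also exonic in Dbp and 373 (8.97%) in Rpl18, both on the opposite strand. For Dbp the shared part was 18% of 2993 exonic bases and for Rpl18 9.23% of 4043. The library kit was a directional one, but the sources used here do not state the strand setting of the counting, so reads of the overlapping parts cannot be told apart. Sphk2 has a second annotated start inside its own locus. The stretch before it and the stretch before Dbp are shown because they precede the starts of overlapping genes whose levels are compared here. They are taken from the promoter table of RefSeq (build GRCm38.p6), written 5′ to 3′ on the gene's own strand and limited to bases outside annotated exons. Capitals mark the CCAAT box (CCAAT) and the GC box (GGGCGG), searched on both strands.
Sphk2, second start, minus strand, chr7:45715208-45715456: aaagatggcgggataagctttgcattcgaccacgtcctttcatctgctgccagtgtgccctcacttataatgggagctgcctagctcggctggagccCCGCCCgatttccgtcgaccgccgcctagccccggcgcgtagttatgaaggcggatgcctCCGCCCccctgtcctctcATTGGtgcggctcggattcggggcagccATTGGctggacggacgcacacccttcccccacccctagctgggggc
Dbp, plus strand, chr7:45704997-45705087: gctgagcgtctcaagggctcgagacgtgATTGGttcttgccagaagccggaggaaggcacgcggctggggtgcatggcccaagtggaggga

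The Sphk2 stretch holds 2 GC boxes and 2 CCAAT boxes, and the Dbp stretch 1 CCAAT box. The whole promoter windows of the table, which are longer and include annotated exon bases, hold 3 GC boxes and 2 CCAAT boxes at this start of Sphk2, and 1 GC box and 2 CCAAT boxes at Dbp. Among 32851 such windows of equal length, 35.7% hold a GC box and 37.4% a CCAAT box. The E-box (CACGTG), the element through which clock factors act, was in 7.15% of these windows and its letters were not in that of Dbp.

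Sphk2 (ENSMUSG00000057342) checks the labels. WT replicates 1 and 2 gave 1033 and 743 counts of it, and KO replicates 1 and 2 gave 57 and 100. On the CPM scale these are 54.9 and 53.7 in WT and 4.07 and 4.45 in KO. The groups lay far apart and the replicates close together, and the KO libraries kept 7.85% of the WT mean. The log2 fold change of -3.67 (SE 0.186) is a 12.7-fold lower level, and it ranked 18 by size among the 16566 tested genes. Counts remained in both KO libraries, and whether they came from the bases shared with Dbp and Rpl18 was not tested.

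**Figure D1:**
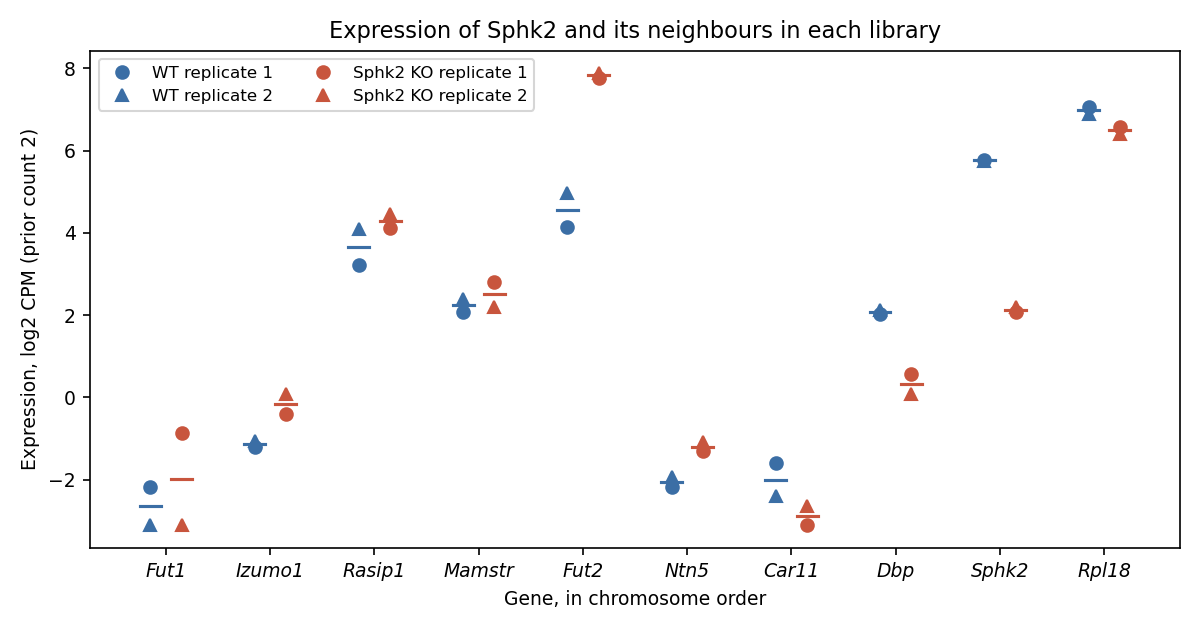
Expression of the 10 genes in chromosome order, in log2 CPM with a prior count of 2. Circles are replicate 1 and triangles replicate 2 of WT (blue) and Sphk2 KO (red), and short lines are the means of 2 libraries. Sphk2 is lower and Fut2 higher in both KO libraries, and Fut1, Izumo1, Ntn5 and Car11 lie near the bottom of the scale in all 4.

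Fut2 (ENSMUSG00000055978), on the same strand as Sphk2, was the neighbour with the largest difference. It had 17.6 and 31.2 CPM in WT and 219 and 235 CPM in KO. Both KO libraries lay far above both WT libraries. The log2 fold change was 3.22 (SE 0.265), a 9.33-fold higher level, with rank 27 by size among the tested genes. With each library left out in turn it lay between 2.85 and 3.70. Fut2 shares no exonic base with another annotated gene.

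Sec1, the fucosyltransferase gene next to Fut2, had 0 counts in both WT libraries and 3 and 10 counts in the KO libraries. It stayed below the count filter and was not tested. With WT set to a floor of 3 counts, its pooled level was 3.88-fold higher in KO. That ratio takes the KO counts as exact and covers no spread between libraries. The counts of Sec1 moved with those of Fut2, and whether they came from the identical run printed above was not tested. Fut1, the other H antigen gene of the region, was nearly silent: WT libraries held 2 and 0 counts and KO libraries 6 and 0. The ratio of its pooled counts, KO over WT, was 2.69 with an exact 95% interval of 0.48 to 27.2. A difference in Fut1 was not detectable at this depth.

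Dbp (ENSMUSG00000059824), which overlaps Sphk2 on the opposite strand, was lower in KO. It had 74 and 59 counts in WT against 19 and 21 in KO, or 3.93 and 4.26 CPM against 1.36 and 0.934 CPM. Both KO libraries lay below both WT libraries, and their mean was 27.9% of the WT mean. The log2 fold change was -1.86 (SE 0.367), with rank 116 by size among the tested genes, and lay between -2.13 and -1.58 with each library left out in turn.

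Rpl18 (ENSMUSG00000059070), which overlaps Sphk2 on its other side, was the most abundant of the 10 genes per length in WT. It had 134 and 118 CPM in WT and 94.9 and 84.6 CPM in KO. The groups did not overlap, and the log2 fold change was -0.49 (SE 0.152), a 1.40-fold lower level. Dbp and Rpl18, the 2 genes that share bases with Sphk2, both had lower values in KO, Dbp by far the more. Whether the shared bases had a part in these values was not tested.

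Rasip1 and Mamstr lie beyond Fut2. Rasip1, a Ras-interacting protein known from Rap1 signalling in blood vessel endothelium, had 9.24 and 17.1 CPM in WT and 17.2 and 22 CPM in KO. WT replicate 2 came close to KO replicate 1, and the log2 fold change of 0.59 (SE 0.30) became 0.19 when WT replicate 1 was left out and 1.10 when WT replicate 2 was. Of its exonic bases, 42.9% are shared with other genes, so its value is uncertain. Mamstr, a coactivator of MEF2 factors known from muscle, had 4.09 and 5.13 CPM in WT and 6.85 and 4.49 CPM in KO. Its groups overlapped, and the log2 fold change of 0.29 (SE 0.323) turned to -0.04 without KO replicate 1.

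Izumo1, Ntn5 and Car11 were below the count filter. Izumo1, the sperm protein that binds the egg receptor, had 6 and 5 counts in WT and 9 and 21 in KO. Its pooled ratio, KO over WT, was 2.44 with an exact 95% interval of 1.19 to 5.40, which covers counting error only. Ntn5, a netrin family gene, had 2 and 2 counts in WT and 4 and 8 in KO, and the interval of its ratio, 2.69, ran from 0.814 to 11.4. Ntn5 shares 23.4% of its exonic bases with Sec1 on the opposite strand. Car11, a carbonic anhydrase-related protein without known enzyme activity, had 4 and 1 counts in WT and 0 and 1 in KO, and its ratio of 0.179 had an interval of 0.0038 to 1.60. Of these 3 genes, the interval of Izumo1 alone lay above 1, and Izumo1 overlaps Rasip1, whose counts were also larger in KO.

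Of the 10 genes, 6 passed the count filter and 4 did not. Of the 6, edgeR called 2 at an adjusted p under 0.05, Sphk2 lower and Fut2 higher, against 0.109% of all tested genes (0.0664% lower and 0.0423% higher). DESeq2 called 0.476% of the genes it tested, and edgeR without a count filter 2.07%. Both groups were separate in 5 of the 6, 3 lower and 2 higher, against 43.2% of all tested genes (22.7% lower and 20.4% higher). A fitted change of at least 2-fold was seen in 3 of the 6, against 4.9% of all tested genes. The genes were chosen with this comparison known, so these shares describe the choice. Sphk2 and Fut2 were called under every setting that kept all 4 libraries. Dbp was also called without the count filter, where 2.07% of all genes were called. With the replicate block, Dbp, Rasip1 and Rpl18 were called as well, but that setting called 2637 of 16566 tested genes. Mamstr was not called under any of these settings.

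**Figure D2:**
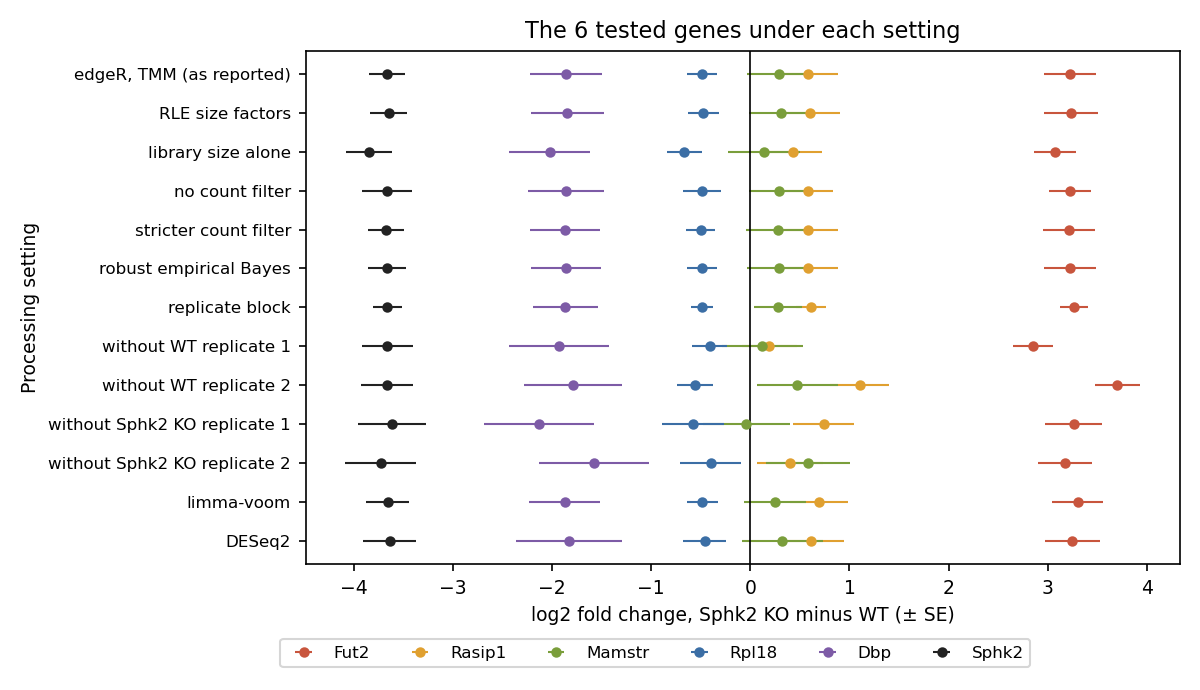
Log2 fold change (KO minus WT) with its SE for the 6 tested genes under each processing setting, the reported one in the top row. Sphk2 stays between -3.84 and -3.61 and Fut2 between 2.85 and 3.70, and Mamstr crosses 0 without KO replicate 1.

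Divided by the length of the annotated exons, the levels can be set in order across genes. That order holds for the annotated lengths only, which for Rpl18 take in 4043 exonic bases over all its annotated transcripts. Which transcripts the cells made was not tested, so the places of Fut2 and Rpl18 relative to each other are uncertain. In WT, Rpl18 led with 31.2 ± 2.64 CPM per kilobase (mean ± SD, n = 2), followed by Sphk2 with 13.05 ± 0.20 CPM per kilobase. Fut2 with 4.50 ± 1.77 and Rasip1 with 4.11 ± 1.73 CPM per kilobase came next. By these lengths Fut2 stood slightly above Rasip1 within WT replicate 1 (3.25 against 2.89) and WT replicate 2 (5.75 against 5.33). Dbp had 1.37 ± 0.0789 and Mamstr 0.945 ± 0.151 CPM per kilobase, and the other 4 genes each had 0.114 or less.
In KO the order was another one. By these annotated lengths Fut2 led with 41.8 ± 2.11 CPM per kilobase, above Rpl18 with 22.2 ± 1.80. Rasip1 had 6.12 ± 1.06, Mamstr 1.16 ± 0.342 and Sphk2 1.02 ± 0.065 CPM per kilobase, of which Mamstr and Sphk2 did not differ beyond their spread, and Dbp had 0.383 ± 0.0995. Within a library, Fut2 stood at 0.246 and 0.445 times the level of Sphk2 per kilobase in WT, and at 41.2 and 40.4 times in KO.

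The genes whose profile over the 4 libraries was most like that of Sphk2 or Fut2 were found by the Euclidean distance between centred log2 CPM values, among 10043 tested genes that averaged 5 CPM or more. Nearest to Sphk2 were Nxpe4 on chromosome 9 (distance 0.50 in log2 units), Gm1966 on chromosome 7 (0.53) and Trim5 on chromosome 7 (0.89). Nxpe4 had 36.6 and 29.6 CPM in WT and 3.64 and 2.98 CPM in KO. Near to Fut2 were Cadm1 on chromosome 9 (0.24), a cell adhesion gene, and Trim34b on chromosome 7 (0.89). Cadm1 had 1.22 and 1.95 CPM in WT and 14.6 and 13.8 CPM in KO, so that it shared with Fut2 the lower level of WT replicate 1.

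Genes farther out were read in the same fit. Among the 50 protein-coding genes on either side of Sphk2, the 10 left out, 91 remained, and 47 of them passed the count filter. Their median log2 fold change was -0.0078. Of the 47, 0 were called by edgeR at an adjusted p under 0.05, against 0.109% of all tested genes. At an unadjusted p under 0.05 there were 1 higher and 5 lower, against 10.5% of all tested genes in either direction. DESeq2 called 1, against 0.476% of all genes it tested, and limma-voom called 0. The groups were separate in 12 higher and 11 lower of the 47, against 43.2% of all tested genes. With 100 genes on either side, 1 gene of 95 tested was called.

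Sult2b1, a sulfotransferase that acts on cholesterol, lies 4 protein-coding genes from Sphk2 on the side of Rpl18 and had the largest difference in this window. It had 26 and 18 counts in WT and 4 and 6 in KO. Both KO libraries lay below both WT libraries, and its log2 fold change of -2.26 (SE 0.482) missed the threshold (edgeR adjusted p = 0.266). Without the count filter it was called (edgeR adjusted p = 0.0114), a setting under which 2.07% of all genes were called. Fam83e, between Rpl18 and Sult2b1, gave 0.06 (SE 0.509), with overlapping groups. Cyth2, the next tested gene, is a guanine exchange factor of ARF proteins and gave 0.24 (SE 0.153, edgeR adjusted p = 0.597).

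On the side of Fut2, the nearest tested gene beyond Fut1 was Bcat2, the mitochondrial enzyme that begins the breakdown of branched-chain amino acids. It had 13.3 and 8.02 CPM in WT and 6.14 and 3.07 CPM in KO. The groups did not overlap, and its log2 fold change was -1.24 (SE 0.391), which missed the threshold (edgeR adjusted p = 0.41). Like Sult2b1, Bcat2 was called without the count filter (edgeR adjusted p = 0.00343), where 2.07% of all genes were called. Leaving out WT replicate 2 changed its log2 fold change to -1.55 and leaving out KO replicate 1 to -1.81, so its size rested on which libraries were used. Plekha4 (0.03, SE 0.36) and the stress response phosphatase subunit Ppp1r15a (0.02, SE 0.188) followed. The antisense transcripts Gm45437 and A030001D20Rik, which lie across Rasip1, gave 0.28 (SE 0.461) and 0.55 (SE 0.349), with edgeR adjusted p of 0.835 and 0.593, and cannot be told apart from Rasip1 where they share its bases.

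**Figure D3:**
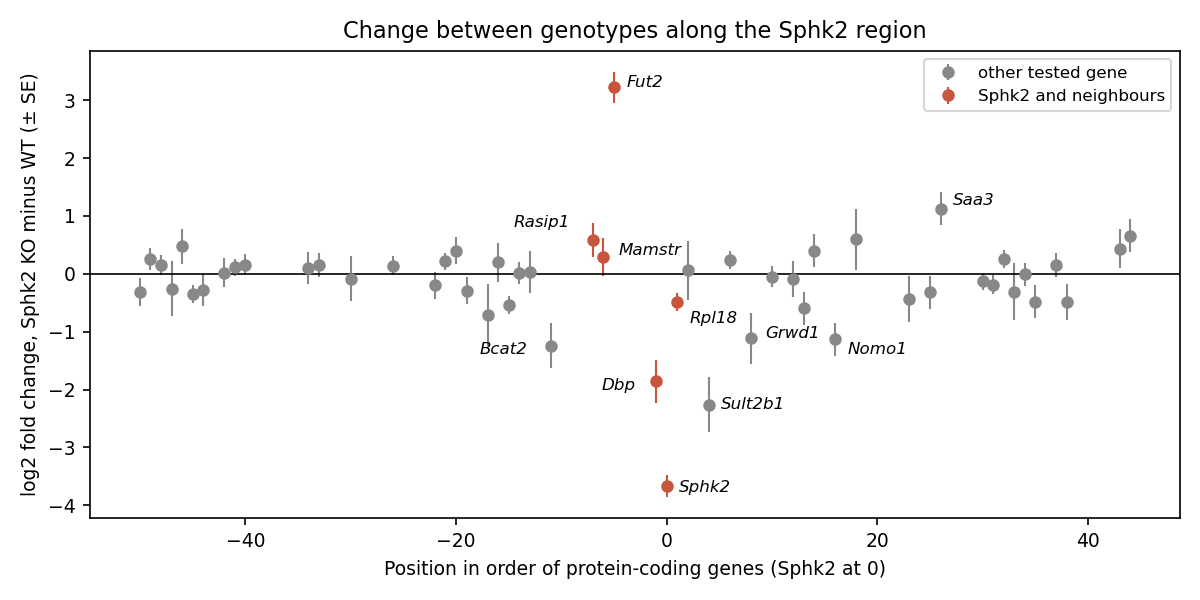
Log2 fold change (KO minus WT) with its SE for each tested gene among the 50 protein-coding genes on either side of Sphk2, by gene order. The 6 tested genes of the neighbourhood are red and the others grey. Fut2 at 3.22 and Sphk2 at -3.67 stand at the extremes, and Sult2b1 at -2.26 is the grey point farthest from 0.

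The partners of these genes in their pathways were examined through 9 lists, tested in the same fit. In none of the lists did edgeR, DESeq2 or limma-voom call a member at an adjusted p under 0.05. Of all tested genes, edgeR called 0.109% and DESeq2 0.476%, so 0 calls in a list do not show that its genes were unchanged. Of 29 tested genes of sphingosine 1-phosphate metabolism, 1 was higher and 3 lower at an unadjusted p under 0.05, and the median log2 fold change was -0.10. Of all tested genes, 10.5% passed that unadjusted threshold in either direction, and the counts of the lists are to be read against this share. Sphk1, the other sphingosine kinase, had 12 and 3 counts in WT and 7 and 24 in KO, with overlapping groups (0.85, SE 0.625, edgeR adjusted p = 0.642). Cers6, a ceramide synthase and the most abundant member, gave 0.43 (SE 0.227, edgeR adjusted p = 0.54).

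For Dbp the partners were clock genes and the other PAR bZIP factors. Of 19 tested, 7 had positive and 12 negative values, and the median was -0.28. Both KO libraries lay below both WT libraries in 11 of the 19, against 22.7% of all tested genes. They lay above in 4, against 20.4%. At an unadjusted p under 0.05, 1 was higher and 2 were lower, against 10.5% of all tested genes. Tef, a PAR bZIP factor, gave -0.54 (SE 0.269, edgeR adjusted p = 0.511) and Hlf, another one, 0.20 (SE 0.393, edgeR adjusted p = 0.867). The clock repressors Nr1d1 and Nr1d2 gave -0.32 (SE 0.421) and -0.63 (SE 0.319). Per1, most abundant of the list, stood at 676 ± 6.56 CPM in WT and 637 ± 21.1 in KO (mean ± SD, n = 2) and a log2 fold change of -0.09 (SE 0.203). Nfil3, which binds the same DNA element as Dbp and represses it, gave 0.07 (SE 0.182). The value of Dbp, -1.86, lay below those of all 19.

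For Rpl18 the partners were 43 other proteins of the large ribosomal subunit, all tested. Of these, 38 had negative and 5 positive values, with a median of -0.29, and 24 had both KO libraries below both WT libraries, against 22.7% of all tested genes. At an unadjusted p under 0.05 there were 11 lower and 0 higher, against 10.5% of all tested genes in either direction. The summed level of the list was 5422 and 4222 CPM in WT and 4066 and 3733 CPM in KO. Rplp0, the most abundant member, gave -0.44 (SE 0.232, edgeR adjusted p = 0.539). The value of Rpl18, -0.49, lay within the range of the list, which ran from -0.78 to 0.23.

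For Fut2 the partners were 19 tested genes of fucosylation and of the glycans that carry it. They had a median of 0.04, which was -0.14 with library size alone, with 11 positive and 8 negative values and a range from -0.87 to 0.47. At an unadjusted p under 0.05 there were 0 higher and 2 lower, against 10.5% of all tested genes. Fut4 and Fut7, which add fucose to the selectin ligands of leukocytes, gave 0.21 (SE 0.194) and 0.47 (SE 0.308), with edgeR adjusted p of 0.713 and 0.606. St3gal4, a sialyltransferase and the most abundant member, gave 0.23 (SE 0.206). The value of Fut2, 3.22, lay above all 19, but Fut2 was chosen with its difference known.

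The partners of Mamstr (9 tested MEF2 and myogenic genes) had a median of -0.03, with 4 positive and 5 negative values and 0 higher and 2 lower at an unadjusted p under 0.05, and their most abundant member Hdac4 gave 0.33 (SE 0.291). Those of Rasip1 (10 tested genes of Rap1 signalling) had a median of 0.02, which was -0.15 with library size alone, with 0 higher and 2 lower at that threshold, and Rap1b gave 0.10 (SE 0.202). The value of Rasip1, 0.59, lay above the range of this list, -0.84 to 0.22, but was 0.19 without WT replicate 1. The 5 tested carbonic anhydrases had a median of 0.16, which was -0.01 with library size alone, with 1 higher and 0 lower. Car2 among them had 4.63 ± 1.52 CPM in WT and 10.7 ± 3.09 CPM in KO (mean ± SD, n = 2), and its edgeR adjusted p was 0.40 at a log2 fold change of 1.22 (SE 0.332). The 3 tested netrin genes (median 0.25, Ntng2 at 0.25, SE 0.158) and the 8 of sperm-egg fusion (median 0.17, Cd9 at 0.19, SE 0.214) had 0 genes at an unadjusted p under 0.05.

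**Figure D4:**
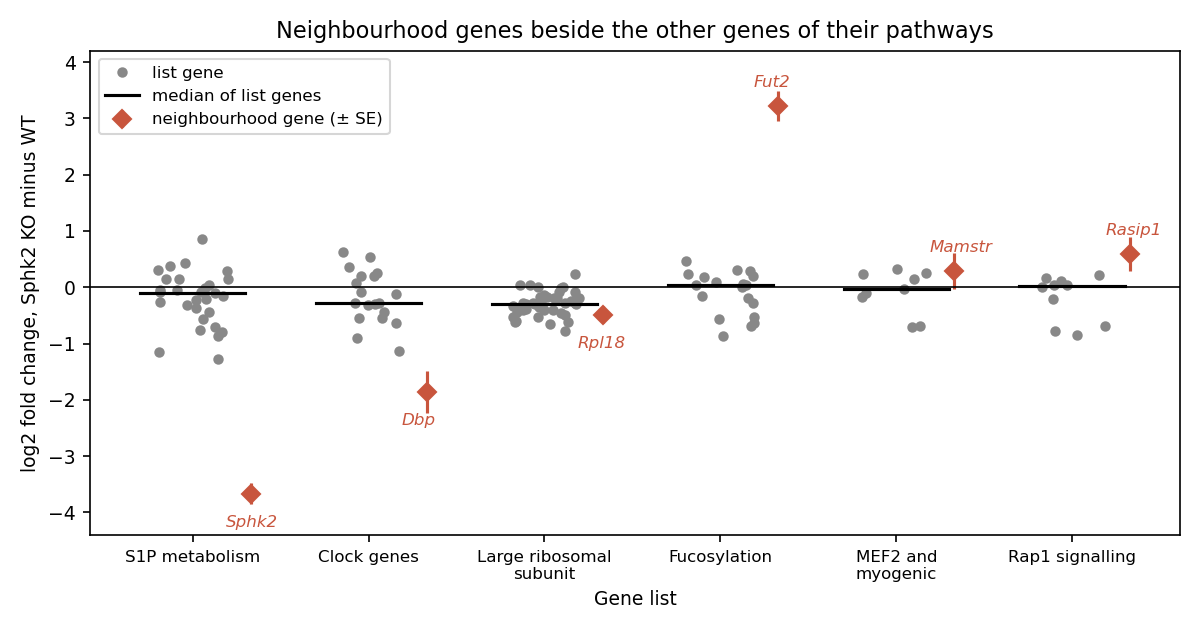
Log2 fold change (KO minus WT) of the tested genes of 6 pathway lists (grey points, median as a line) and of the neighbourhood gene that belongs with each (red diamond with SE). Sphk2, Dbp, Fut2 and Rasip1 lie outside the range of their lists, and Rpl18 at -0.49 and Mamstr at 0.29 lie inside. The differences of Sphk2 and Fut2 were known when the genes were chosen.

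Markers of cell types were read beside these values. The 14 neutrophil and MDSC markers were all detected, with summed levels of 22120 and 29824 CPM in WT and 34765 and 41004 CPM in KO, led by S100a9 (0.74, SE 0.465), with 12 of the 14 above 0. The 8 erythroid markers, led by Hbb-bs, summed to 60.4 and 184 CPM in WT and 309 and 533 CPM in KO, all 8 with positive values and none at 0 counts, so they moved in the same direction as Fut2. The 11 T cell and EL4 markers, led by Cd5, summed to 48.7 and 40.2 CPM in WT and 28.8 and 27.5 CPM in KO, with 9 of 10 tested below 0, the direction of Sphk2 and Dbp. The 7 B cell markers, led by Ighm, summed to 1441 and 1219 CPM in WT and 1416 and 654 CPM in KO, all 7 below 0. The 10 monocyte markers, led by Fn1, summed to 2416 and 1540 CPM in WT and 1439 and 948 CPM in KO, with 4 of the 10 above 0 and a median log2 fold change of -0.12. Both KO libraries lay below both WT libraries in 1 monocyte, 7 T cell and 5 B cell markers, against 22.7% of tested genes. They lay above in 9 neutrophil and MDSC and 6 erythroid markers, against 20.4% of tested genes. None of these 5 lists had tested markers apart in the other direction. The 9 eosinophil and mast cell markers, led by Kit, summed to 116 and 133 CPM in WT and 144 and 176 CPM in KO, with 4 of 7 tested above 0.
Epithelial and mesothelial markers, which accompany the tissues in which Fut2 is best known, summed to 10.2 and 13.6 CPM in WT and 9.77 and 9.30 CPM in KO, led by Cdh1. The 7 endothelial markers, led by Pecam1, summed to 50.7 and 54.1 CPM in WT and 44.9 and 32.9 CPM in KO. The part of these cell types in the values of the 10 genes was not tested, and in bulk RNA fewer cells of a type and less RNA per cell cannot be told apart.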

How the data were processed

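Raw counts per Ensembl gene ID were deposited by the authors, 1 column for each library. The submitters' processing notes name Trim Galore, STAR, featureCounts, DESeq2 and the build GRCm39. Versions, annotation release, strand setting and the handling of multi-mapped reads were not given in the sources used here. The 0 rows without a gene ID and 0 unused columns left nothing out. Replicates were not repeat deposits of 1 library (chi-square of their counts per degree of freedom 29.3 in WT and 18.9 in KO).

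Counts were fitted with edgeR 4.0.16 in R 4.3.3 (filterByExpr, TMM, glmQLFit, glmQLFTest) on all 4 libraries, with genotype as the single term and with Benjamini-Hochberg adjustment over all 16566 tested genes. The SE of an edgeR fit was derived as the absolute log2 fold change divided by the square root of the F statistic of glmQLFTest. The script was tested on simulated data. For genes below the filter, pooled counts were compared by an exact (Clopper-Pearson) 95% interval. Where a group had 0 counts, it was set to a floor of 3 counts, and a ratio was given without an interval. Symbols matched 52083 IDs. Gene order, exon overlaps and transcript sequences came from GENCODE M21 on GRCm38, which is not the build of the counts, and promoter sequences from RefSeq on GRCm38.p6.

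The 10 genes and the lists were chosen with earlier results of these data known. Named beside the 10 genes were the annotated genes between them, the nearest 3 tested genes on either side, called genes of the window and lists, the most abundant member of each list, some fixed partners, and the 3 genes nearest in profile to Sphk2 and to Fut2. One gene that this rule selects is not reported here. Other genes were named after their values were seen. Alternatives were DESeq2 1.42.0, limma-voom (limma 3.58.1), RLE factors, library size alone, 2 other count filters, robust empirical Bayes, a replicate block and each library left out in turn.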

Additional observations from a re-analysis of the deposited data

How the results depend on the processing

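Of 16566 tested genes edgeR called 18. The count was 76 with DESeq2, 615 without the count filter, and 54 to 1061 with a library left out. In the window of 50 genes on either side of Sphk2 the count of 0 became 1 with DESeq2, 4 without the count filter, 1 with 100 genes on either side, and 0 to 6 with a library left out. Without the count filter, 2 genes of sphingosine 1-phosphate metabolism were called and 1 each of the fucosylation, ribosomal, carbonic anhydrase, MEF2 and Rap1 lists. With a library left out the counts were 0 to 4 for sphingosine 1-phosphate metabolism, 0 to 2 for the clock genes, 0 to 1 for fucosylation, 0 to 10 for ribosomal proteins, 0 to 1 for carbonic anhydrases, 0 to 2 for the MEF2 list and 0 to 1 for Rap1 signalling. Without WT replicate 2 each list reached the upper end of its range, and so did fucosylation, the carbonic anhydrases and Rap1 signalling without KO replicate 1. The count over all genes was 54 without WT replicate 1, 1061 without WT replicate 2, 639 without KO replicate 1 and 59 without KO replicate 2. The cause was not tested. The labels give both genotypes the replicate numbers 1 and 2 but no shared batch, and deviations of same-numbered libraries correlated at 0.44 across genes. With the replicate block edgeR called 2637 of 16566 tested genes, and the counts that follow are to be read against this. It called 5 of the 6 tested genes of the neighbourhood, which were chosen with this comparison known. In the window it called 10 of 47, among them Sult2b1 (edgeR adjusted p = 0.00131) and Bcat2 (edgeR adjusted p = 5.46e-06). Of the lists it called 5 of 29 genes of sphingosine 1-phosphate metabolism, 7 of 19 clock genes, 3 of 19 of fucosylation and 16 of 43 ribosomal. It also called 1 of 5 carbonic anhydrases, 2 of 9 of the MEF2 list and 2 of 10 of Rap1 signalling.

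With library size alone as the scale, Sphk2 gave -3.84 and Rpl18 -0.67, shifts of the size of that of all genes (-0.17). Taking the longest transcript as the length gave Rpl18 42.2, Sphk2 15.3, Fut2 8.26 and Dbp 2.23 CPM per kilobase in WT, and Fut2 76.8, Rpl18 30.03, Sphk2 1.20 and Dbp 0.623 in KO. The order of the 10 genes was the same with both lengths. Both come from the annotation, so this cannot show whether the order holds for the transcripts that the cells made. With 2 libraries per genotype, genes with few counts, here Fut1, Car11, Ntn5 and Izumo1, allow only intervals for counting error. Sec1, with 0 counts in WT, allows only a ratio to the floor.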

Other observations

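Gm31597, an antisense transcript inside Sult2b1 that was chosen after its values were seen, had 11 and 8 counts in WT and 0 in both KO libraries. With KO set to a floor of 3 counts, its pooled level was 7.07-fold lower in KO. That ratio takes the WT counts as exact and covers no spread between libraries. Both transcripts of that locus thus had lower values, and reads of one cannot be told apart from those of the other where they overlap.

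Other genes of the window with an unadjusted p under 0.05 were also chosen after their values were seen. Saa3, an acute phase protein, had a log2 fold change of 1.12 (SE 0.285, edgeR adjusted p = 0.373) and was called by DESeq2 (adjusted p = 0.0457). Nomo1 gave -1.13 (SE 0.286, edgeR adjusted p = 0.373), Grwd1, a ribosome assembly factor, -1.11 (SE 0.442, edgeR adjusted p = 0.446), and Nucb1, a calcium-binding Golgi protein, -0.54 (SE 0.16, edgeR adjusted p = 0.401). In all 4 both KO libraries lay on the same side of both WT libraries, as in 43.2% of all tested genes. Choosing genes by their p favours such separation, so it adds nothing to their values.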
